A study of Mus musculus with 16 samples.

Results

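The Ms4a genes encode a family of small membrane proteins, and 6 of them were followed across heart macrophages and blood monocytes: Ms4a7, Ms4a4b, Ms4a4c, Ms4a6b, Ms4a6c and Ms4a6d. The list of genes was set with earlier results of these data known. The members were then taken as every probe whose gene symbol in the scanner files names one of these genes, a step that used no measured value. This gave 9 of the 39429 probes on the array, and as genes the members are 6 of the 22081 genes and unnamed features tested. RNA was measured on 16 single-colour Agilent arrays labelled with Cy5, 4 for each of 4 sorted populations of untreated C57BL/6 mice, under a series title that names gene expression in cardiac macrophages. CCR2+ macrophages came from the heart and were CCR2-high and MHCII-high. MHC-IIHi macrophages from the heart were CCR2-negative, MHCII-high and low for CD11c, and MHC-IIlo macrophages from the heart were CCR2-negative, MHCII-low and negative for CD11c. All heart gates took live cells positive for CD45, MerTK and CD64 and negative for Ly6c, and Ly6cHi monocytes came from blood. No genotype, allele or agent is named for any group, age is not given in the sources used here, and the labels do not say whether replicates were separate mice or pools, so p-values measure only the spread between these samples.

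MS4A proteins cross the membrane several times and often sit beside other surface receptors, whose signalling they tune. The best known relatives are MS4A1, which is CD20 of B cells, and MS4A2, the beta chain of the high-affinity IgE receptor of mast cells and basophils. Several members are read in myeloid cells: Ms4a7 is widely used as a marker of tissue macrophages, including those at the borders of the brain, and Ms4a6c and Ms4a6d are transcripts of mouse monocytes and macrophages. In the mouse genome all 6 members lie in 1 cluster on chromosome 19, in the order Ms4a7, Ms4a4c, Ms4a4b, Ms4a6c, Ms4a6b and Ms4a6d, per the RefSeq gene table.

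Levels below are log2 processed signal relative to the array's 75th percentile, so 0 is the signal at that percentile, and each value is compared only with other arrays at the same probe. Differences are log2 values ± SE from limma fitted to all 16 arrays, with p-values adjusted by Benjamini-Hochberg over all 22081 features, and a difference passed the test where the adjusted p was under 0.05. All 9 member probes were well above background on all 16 arrays. The share of spots clearing the background cutoff was 58.1% to 69.3% on macrophage arrays and 52.8% to 60.1% on monocyte arrays, and the 75th percentile signal was 941 to 1670 on macrophage arrays and 819 to 996.2 on monocyte arrays. Mertk, the receptor used to gate macrophages, averaged 2.05, 2.59 and 2.70 in CCR2+, MHC-IIHi and MHC-IIlo macrophages and cleared the background cutoff on no monocyte array. Ccr2 averaged 0.55 in CCR2+ macrophages, -3.31 in MHC-IIHi and -3.92 in MHC-IIlo macrophages and 1.05 in monocytes. Fcgr1, which encodes CD64, differed from monocytes by 0.31, 0.25 and 0.13 in CCR2+, MHC-IIHi and MHC-IIlo macrophages, and none of these passed. Ly6c1, one of the genes of the Ly6c antigen that the heart gates were negative for, averaged 2.59 in CCR2+, 1.26 in MHC-IIHi and 1.38 in MHC-IIlo macrophages, against 5.70 in monocytes, and was 1.33 higher in CCR2+ than in MHC-IIHi macrophages (adjusted p = 0.0291). The accompanying table of normalized values carries labels that disagree with the scanner files for all 16 columns, so every value here is taken from the scanner files. In sorted bulk RNA a lower level cannot be told apart from fewer cells that carry the transcript.

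By the brightest probe of each gene, Ms4a7 was the member that rose in heart macrophages. Ms4a4b, Ms4a6b and Ms4a6c fell in all 3 macrophage groups relative to monocytes, as did Ms4a4c at its 2 dimmer probes. Of the 6 members, 1 was higher and 4 were lower in CCR2+ macrophages than in monocytes, where 9.91% of all features were higher and 12% lower, 21.9% together. In MHC-IIHi macrophages 1 was higher and 3 were lower, beside 10% and 11.6% of all features, 21.6% together. The MHC-IIlo group gave 1 higher and 3 lower, beside 10.1% and 11.4% of all features, 21.4% together. Averaged over the macrophage groups 1 was higher and 4 were lower, beside 12.4% and 15.2% of all features, or 27.6% together. With replicate as a block, the count past the test was 5 in CCR2+, 6 in MHC-IIHi and 6 in MHC-IIlo macrophages, beside 33.9%, 31.8% and 32.3% of all features. Ms4a6d was then higher in MHC-IIHi and MHC-IIlo macrophages than in monocytes (adjusted p = 0.0308 and 0.00719). The blocked average over the macrophage groups gave 6 members, beside 38.4% of all features, Ms4a6d being 0.50 higher (adjusted p = 0.0186). Of the members, 1 (Ms4a7) lay above and 3 (Ms4a4b, Ms4a6b and Ms4a6c) lay below every monocyte array on all 12 macrophage arrays, beside 6.26% and 7.91% of all features. Among macrophage groups 0 of 6 members passed in CCR2+ against MHC-IIHi (1.27% of all features), 0 of 6 in CCR2+ against MHC-IIlo (2.79%) and 0 of 6 in MHC-IIHi against MHC-IIlo (0.0679%). At an unadjusted p under 0.05 the counts were 1, 2 and 0 of 6 members in these 3 comparisons. These counts take the brightest probe of each gene, which for Ms4a4c is a probe with a long dinucleotide repeat. Without such probes 1 member, Ms4a4c, was higher in CCR2+ than in MHC-IIHi macrophages, where 0.646% of the 21985 features then tested were higher. It was also higher in CCR2+ than in MHC-IIlo macrophages (1.53% of features). Ms4a4c then also passed as lower than in monocytes, at -2.15 in CCR2+, -3.59 in MHC-IIHi and -3.96 in MHC-IIlo macrophages. With repeat probes kept, 12%, 11.6% and 11.4% of all features were lower. No macrophage array overlapped a monocyte array at that Ms4a4c probe.

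Ms4a7 separated the heart from the blood population. Its levels were 4.03, 3.63, 3.50 and 3.40 on the 4 CCR2+ arrays, 4.17, 3.69, 3.54 and 3.29 on the MHC-IIHi arrays and 4.17, 3.57, 3.71 and 3.32 on the MHC-IIlo arrays, against -0.80, -0.85, -0.13 and -1.37 on the monocyte arrays. Every macrophage array lay above every monocyte array, and in each macrophage group replicate 1 was the highest and replicate 4 the lowest. The difference from monocytes was 4.43 ± 0.27 in CCR2+ macrophages (21.5-fold, adjusted p = 2.00e-08), 4.46 ± 0.27 in MHC-IIHi macrophages (adjusted p = 1.21e-08) and 4.48 ± 0.27 in MHC-IIlo macrophages (22.3-fold, adjusted p = 1.04e-08). The macrophage groups averaged 3.64 ± 0.27 (CCR2+), 3.67 ± 0.37 (MHC-IIHi) and 3.69 ± 0.36 (MHC-IIlo; SD, n = 4 each), and no pair of them differed beyond its spread. For CCR2+ against MHC-IIHi the 95% interval of the difference was -0.62 to 0.55, and for CCR2+ against MHC-IIlo it was -0.64 to 0.53. Over the 16 arrays the named genes with the pattern most like that of Ms4a7 were Cttnbp2nl (Pearson r = 0.994), Slamf9 (0.991) and Gadd45b (0.991). These correlations and those given for the other members are descriptions over arrays that share 4 groups and 4 slides.

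**Figure D1:**
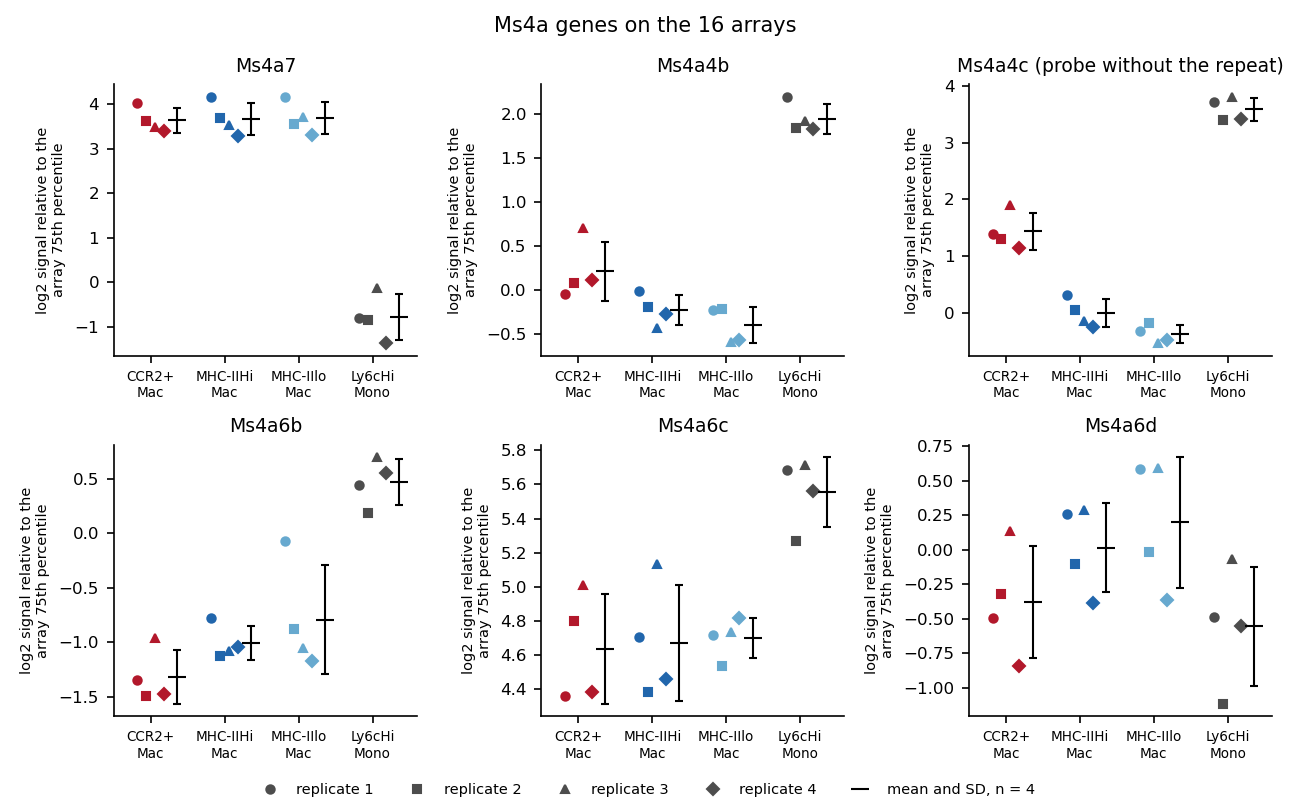
Log2 signal relative to the array's 75th percentile (vertical axis, scaled separately for each gene) of the 6 Ms4a genes in the 4 sorted groups, with 1 point per array, its shape giving the replicate, and the mean and SD of n = 4, Ms4a4c being drawn for its first repeat-free probe and not for the brighter repeat probe counted above. Ms4a7 lies between 3.29 and 4.17 on all macrophage arrays and between -1.37 and -0.13 on monocyte arrays, while Ms4a4b, Ms4a6b, Ms4a6c and the drawn probe of Ms4a4c are lower on every macrophage array than on every monocyte array.

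Ms4a4b, known in mouse T cells as a protein that associates with the co-stimulatory receptor GITR, fell in all 3 macrophage groups. Levels were -0.05, 0.08, 0.70 and 0.11 on CCR2+ arrays, -0.02, -0.20, -0.43 and -0.28 on MHC-IIHi arrays and -0.23, -0.22, -0.59 and -0.57 on MHC-IIlo arrays, against 2.19, 1.83, 1.92 and 1.82 on monocyte arrays. No macrophage array reached a monocyte array, and CCR2+ replicate 3 was the highest macrophage array. The difference from monocytes was -1.73 ± 0.19 in CCR2+ macrophages (adjusted p = 1.19e-05), -2.17 ± 0.19 in MHC-IIHi macrophages (adjusted p = 6.49e-07) and -2.34 ± 0.19 in MHC-IIlo macrophages (adjusted p = 2.70e-07). A second Ms4a4b probe gave differences of -2.02, -2.75 and -2.58 for the same comparisons, all past the test. The CCR2+ arrays did not overlap the MHC-IIlo arrays, but the difference of 0.61 ± 0.19 did not pass (adjusted p = 0.137), and it passed with array weights (adjusted p = 0.0332). MHC-IIHi and MHC-IIlo macrophages overlapped, with a difference of 0.17 (95% interval -0.24 to 0.58). The genes most like Ms4a4b over the arrays were Ly6c1 (r = 0.981), one of the Ly6c genes, Mbp (0.980) and 9030619P08Rik (0.979).

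Because Ms4a4b is best known from lymphocytes, markers of those cells are given beside it. Of 12 T cell genes tested, 0 passed in CCR2+ macrophages against monocytes, 0 in MHC-IIHi and 1, which was lower, in MHC-IIlo macrophages. The shares of all features that passed were 21.9%, 21.6% and 21.4% in the same comparisons. The summed linear level of the 12 genes, in units of the array's 75th percentile, ranged over 5.10 to 6.63 on CCR2+ arrays, 5.32 to 6.23 on MHC-IIHi arrays and 4.84 to 6.23 on MHC-IIlo arrays, against 4.94 to 7.22 on monocyte arrays. Of these 12 genes, 9 cleared the background cutoff on all 4 CCR2+ arrays, 9 on all MHC-IIHi arrays and 8 on all MHC-IIlo arrays, against 9 on all monocyte arrays. The sums of 5 natural killer cell genes ran from 4.00 to 10.8 on macrophage arrays and from 4.96 to 7.94 on monocyte arrays, and those of 6 B cell genes from 5.08 to 12.1 and from 8.24 to 13.3. These sums overlapped between macrophage and monocyte arrays for all 3 lists. Against monocytes 1 natural killer cell gene was lower in CCR2+ macrophages and 1 B cell gene was lower in MHC-IIlo macrophages. No other gene of these 2 lists passed in a single macrophage group against monocytes.

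Ms4a4c was read by 3 probes of 60 bases that did not give the same picture. The brightest probe, which represents the gene in the counts above, holds an unbroken TG run of 29 letters, and the other 2 probes have no run of this kind. The 30-base stretches below show the run in capitals in the Ms4a4c repeat probe and in the probes of Sgsh, which encodes a lysosomal sulfatase, and Ung, which encodes a uracil-DNA glycosylase and, with Sgsh, had the levels most like it. The first 30 bases of both repeat-free Ms4a4c probes follow in lower case. All are read from the scanner files in the 5′ to 3′ direction, with no genome position for the probes used here.
Ms4a4c, repeat probe, bases 9 to 38: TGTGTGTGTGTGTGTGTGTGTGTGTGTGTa
Sgsh, bases 14 to 43: cacaTGTGTGTGTGTGTGTGTGTGTGcgtg
Ung, bases 27 to 56: GTGTGTGTGTGTGTGTGTGTGTGTGTGTGT
Ms4a4c, first repeat-free probe, bases 1 to 30: caacactttaacatcctccattaattgtat
Ms4a4c, second repeat-free probe, bases 1 to 30: atcagcagtctaactctgaacactatcacc

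The repeat probe was close to flat over the groups. Its processed signal, in arbitrary units, was 323000, 290000, 354000 and 305000 on CCR2+ arrays, 290000, 335000, 388000 and 364000 on MHC-IIHi arrays and 369000, 310000, 459000 and 363000 on MHC-IIlo arrays, against 355000, 307000, 362000 and 313000 on monocyte arrays. All 4 groups overlapped on this linear scale. After scaling to the array's 75th percentile its difference from monocytes was -0.85 ± 0.27 in CCR2+ macrophages (adjusted p = 0.0320). The scaled difference was -0.54 ± 0.27 in MHC-IIHi macrophages (adjusted p = 0.187, or 0.0145 with replicate as a block) and -0.47 ± 0.27 in MHC-IIlo macrophages (adjusted p = 0.264, or 0.0296 with the block). The call in CCR2+ macrophages was lost without CCR2+ replicate 2 or 4 and without monocyte replicate 1 or 3, at adjusted p between 0.0815 and 0.0873. It was also lost with quantile normalization (-0.19, adjusted p = 0.389), median scaling (-0.90, adjusted p = 0.0722) and normexp background correction (-0.55, adjusted p = 0.0756). The call of this probe for the average of the macrophage groups was lost under the same 3 settings (adjusted p = 0.490, 0.0738 and 0.0854). It was also lost without CCR2+ replicate 1, 2 or 4, MHC-IIHi replicate 1, 2 or 4, MHC-IIlo replicate 2 or 4, or any 1 monocyte array, at adjusted p between 0.0517 and 0.142.

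Both repeat-free probes showed a graded pattern, with monocytes highest, CCR2+ macrophages intermediate and the CCR2-negative macrophages lowest. At the first repeat-free probe the levels were 1.39, 1.31, 1.90 and 1.15 on CCR2+ arrays, 0.31, 0.06, -0.14 and -0.24 on MHC-IIHi arrays and -0.32, -0.17, -0.53 and -0.48 on MHC-IIlo arrays, against 3.72, 3.41, 3.81 and 3.42 on monocyte arrays. CCR2+ arrays overlapped no other group, while MHC-IIHi and MHC-IIlo arrays overlapped each other. In the fit without repeat probes, which was chosen after the values were seen, CCR2+ macrophages were 1.44 ± 0.20 above MHC-IIHi macrophages (2.72-fold, adjusted p = 0.00137) and 1.81 ± 0.20 above MHC-IIlo macrophages (3.51-fold, adjusted p = 8.55e-05). The same fit put CCR2+ macrophages at -2.15 ± 0.20, MHC-IIHi macrophages at -3.59 ± 0.20 and MHC-IIlo macrophages at -3.96 ± 0.20 relative to monocytes, with adjusted p of 1.54e-06, 3.81e-09 and 1.11e-09. MHC-IIHi exceeded MHC-IIlo macrophages by 0.37 (95% interval -0.05 to 0.79), which did not pass. At the second repeat-free probe, among all 27630 probes kept, CCR2+ macrophages were 1.22 ± 0.23 above MHC-IIHi macrophages (adjusted p = 0.0129) and 1.42 ± 0.23 above MHC-IIlo macrophages (adjusted p = 0.00197), and 2.23 below monocytes on the log2 scale.

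**Figure D2:**
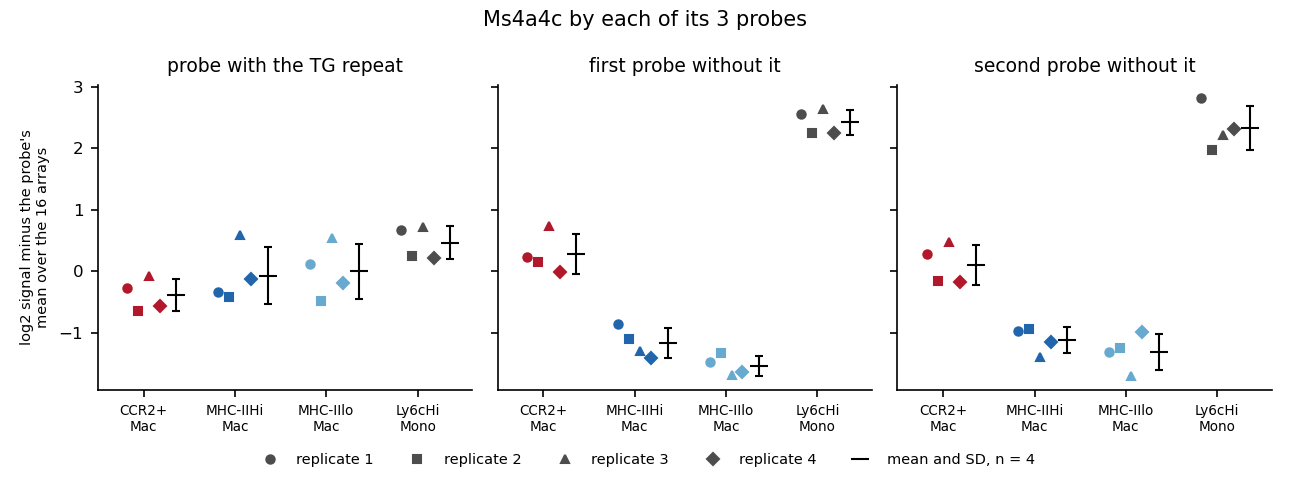
Log2 signal of Ms4a4c at its 3 probes, each minus that probe's own mean over the 16 arrays (shared vertical axis), by sorted group, with 1 point per array and the mean and SD of n = 4. CCR2+ arrays stand between monocytes and the CCR2-negative macrophages at both repeat-free probes, where they are 1.44 and 1.22 above MHC-IIHi macrophages on average, and they are the lowest group on average at the repeat probe.

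The summed level of the Ly6c-high monocyte list followed the same order of groups. Of its 7 tested genes, 5 were higher in CCR2+ than in MHC-IIHi and 5 than in MHC-IIlo macrophages. The shares of all features that passed were 1.27% and 2.79%. Cd177 averaged -2.78 in CCR2+, -2.90 in MHC-IIHi and -2.52 in MHC-IIlo macrophages and did not follow this order. The list also holds Ccr2, whose protein was used to sort the heart groups. The summed linear level of its 7 tested genes was 10.1, 13.3, 26.8 and 6.64 on the 4 CCR2+ arrays, 3.00 to 3.70 on MHC-IIHi arrays and 3.09 to 4.27 on MHC-IIlo arrays, against 184 to 256 on monocyte arrays. CCR2+ replicate 3 had the highest list sum and the highest Ms4a4c and Ms4a4b level of its group, and CCR2+ replicate 4 had the lowest list sum and the lowest Ms4a4c level. Without CCR2+ replicate 3 the difference between CCR2+ and MHC-IIHi macrophages at the repeat-free probe was 1.29 (adjusted p = 0.00578). The summed level of 6 dendritic cell genes was also highest on replicate 3 among CCR2+ arrays, at 3.19, and lowest on replicate 1, at 1.42. It ran over 1.20 to 1.51 on MHC-IIHi, 0.908 to 1.85 on MHC-IIlo and 2.38 to 3.42 on monocyte arrays. The dendritic, neutrophil and mast cell sums each overlapped among the macrophage groups. The part of monocyte or dendritic cell transcripts in the Ms4a4c difference was not tested.

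Probe signal over the whole array rose with the length of the repeat run. The median processed signal was 277.5 over the 38832 probes with no TG or CA run of 8 letters or more, 6220 over 75 probes with a run of 10 or 11, 55950 over 57 probes with a run of 12 to 15, and 176000 over 106 probes with a run of 16 or more. Over the 163 probes with at least 12 letters the median difference from monocytes was -0.63 in CCR2+ macrophages (quartiles -0.76 to -0.50), -0.36 in MHC-IIHi macrophages (-0.50 to -0.18) and -0.31 in MHC-IIlo macrophages (-0.43 to -0.18). The Ms4a4c repeat probe, at -0.85, -0.54 and -0.47, lay just below the lower quartile in each comparison. Its closest genes over the 16 arrays were Sgsh (r = 0.992) and Ung (0.986), whose probes hold TG runs of 22 and 34 letters, and Slc35e1 (0.974), whose probe holds none of that length. With repeat probes left out the genes most like Ms4a4c were Tmsb10 (r = 0.990), Adap1 (0.987) and Apoc2 (0.985).

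**Figure D3:**
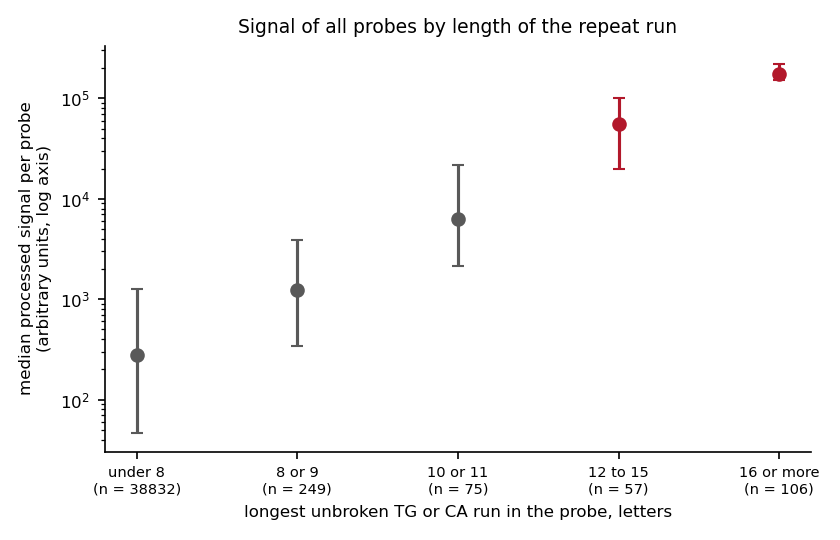
Median processed signal over the 16 arrays (vertical axis, arbitrary units, log scale) of all probes with an unflagged spot on every array, grouped by the longest TG or CA run in the probe, with points at the median and bars from the lower to the upper quartile. The median is 277.5 for probes with runs under 8 letters and 176000 for those with runs of 16 or more.

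Ms4a6b, a neighbour of Ms4a6c described in mouse T cells, fell in all 3 macrophage groups. Levels were -1.35, -1.49, -0.96 and -1.47 on CCR2+ arrays, -0.78, -1.13, -1.08 and -1.04 on MHC-IIHi arrays and -0.07, -0.88, -1.06 and -1.18 on MHC-IIlo arrays, against 0.45, 0.19, 0.70 and 0.55 on monocyte arrays. MHC-IIlo replicate 1 came closest to the monocytes without reaching them. Its processed signal before scaling, 1250, was above those of monocyte replicates 1 and 2 (1170 and 1140). The difference from monocytes was -1.79 ± 0.23 in CCR2+ macrophages (adjusted p = 5.17e-05), -1.48 ± 0.23 in MHC-IIHi macrophages (adjusted p = 2.39e-04) and -1.26 ± 0.23 in MHC-IIlo macrophages (adjusted p = 8.58e-04). The mean levels of the macrophage groups ran from -1.32 ± 0.25 in CCR2+ through -1.01 ± 0.16 in MHC-IIHi to -0.79 ± 0.50 in MHC-IIlo macrophages (SD, n = 4 each), and no neighbouring pair differed beyond its spread. For CCR2+ against MHC-IIlo macrophages the difference was -0.52 ± 0.23 (adjusted p = 0.385). The genes most like Ms4a6b were Stard5 (r = 0.962), Add3 (0.956) and Bnip3l (0.954).

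Ms4a6c fell by a smaller and nearly equal amount in all 3 macrophage groups. Levels were 4.35, 4.80, 5.01 and 4.38 on CCR2+ arrays, 4.70, 4.38, 5.13 and 4.46 on MHC-IIHi arrays and 4.71, 4.53, 4.73 and 4.81 on MHC-IIlo arrays, against 5.69, 5.27, 5.71 and 5.56 on monocyte arrays. The macrophage groups overlapped each other, and the highest of their arrays, MHC-IIHi replicate 3, lay just under the lowest monocyte array. Before scaling to the 75th percentile the processed signal overlapped, at 30900 to 48600 on macrophage arrays and 38500 to 49200 on monocyte arrays. The difference from monocytes was -0.92 ± 0.21 in CCR2+ macrophages (1.89-fold lower, adjusted p = 0.00475), -0.89 ± 0.21 in MHC-IIHi macrophages (adjusted p = 0.00565) and -0.86 ± 0.21 in MHC-IIlo macrophages (adjusted p = 0.00688). With quantile normalization these became -0.46, -0.52 and -0.52 and did not pass (adjusted p = 0.0911, 0.0549 and 0.0526). Between macrophage groups the differences were within 0.06 of 0, with 95% intervals of -0.48 to 0.41 for CCR2+ against MHC-IIHi and -0.51 to 0.38 for CCR2+ against MHC-IIlo. Plod3 (r = 0.960), Prr13 (0.952) and Rps15 (0.946) were most like Ms4a6c.

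Ms4a6d, whose protein forms a surface complex with the macrophage receptor Vsig4 in mice, did not pass in any comparison of the main fit, which had no block. Levels were -0.50, -0.32, 0.13 and -0.84 on CCR2+ arrays, 0.26, -0.10, 0.29 and -0.38 on MHC-IIHi arrays and 0.58, -0.02, 0.59 and -0.37 on MHC-IIlo arrays, against -0.49, -1.11, -0.07 and -0.55 on monocyte arrays. The groups overlapped, and replicate 3 was the highest array in all 4 groups. The mean differences from monocytes were 0.17 ± 0.29 in CCR2+ (adjusted p = 0.746), 0.57 ± 0.29 in MHC-IIHi (adjusted p = 0.200) and 0.75 ± 0.29 in MHC-IIlo macrophages (adjusted p = 0.0801). With replicate as a block, the MHC-IIHi and MHC-IIlo differences passed (adjusted p = 0.0308 and 0.00719), and MHC-IIHi and MHC-IIlo macrophages exceeded monocytes on 4 of 4 slides. In CCR2+ macrophages 2 of 4 slides had the same sign as the mean. The MHC-IIlo difference also passed after normexp background correction (0.76, adjusted p = 0.0379), as did the average over the macrophage groups (0.57, adjusted p = 0.0451). Leaving out MHC-IIlo replicate 4 (0.94, adjusted p = 0.0384) or monocyte replicate 3 (0.92, adjusted p = 0.0485) also made the MHC-IIlo difference pass. Dlgap4 (r = 0.910), Calcoco1 (0.900) and Gpr137b (0.883) were most like Ms4a6d.

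**Figure D4:**
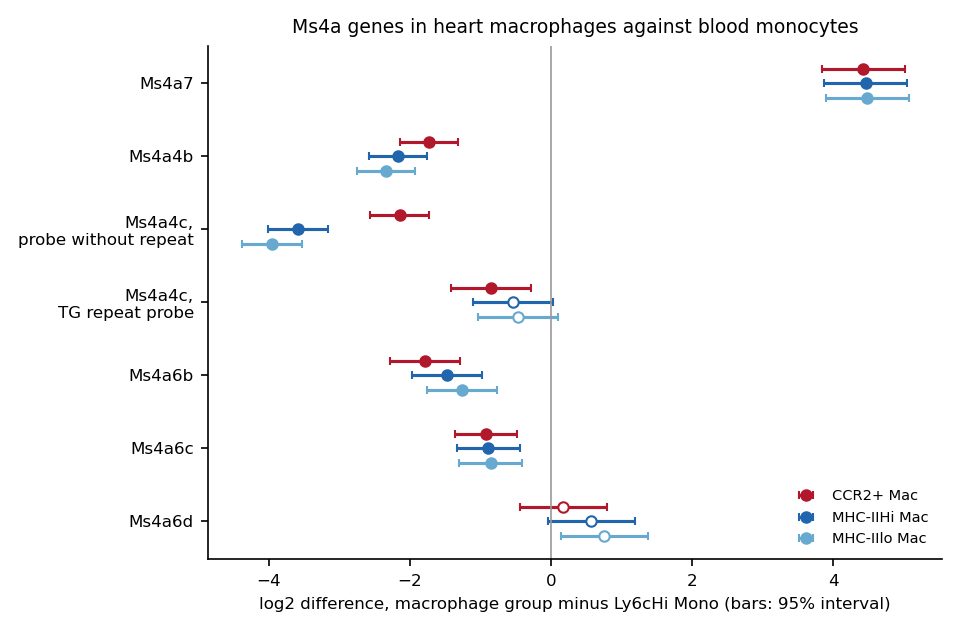
Log2 difference of each macrophage group from Ly6cHi monocytes (horizontal axis) for the 6 Ms4a genes, Ms4a4c being drawn for its first repeat-free probe and for its repeat probe, with bars for the 95% interval and filled points for an adjusted p under 0.05. Ms4a7 stands at 4.43 to 4.48 in all 3 groups, and the repeat-free Ms4a4c probe runs from -2.15 in CCR2+ to -3.96 in MHC-IIlo macrophages.

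Promoter windows are given as a description of the members. The 250 bases before the annotated start were taken from RefSeq (GRCm38.p6) for Ms4a4b, Ms4a4c, Ms4a6b, Ms4a6c and for both listed starts of Ms4a7, and Ms4a6d was not matched. The windows of Ms4a4b and Ms4a4c were 88% identical over a local alignment of 133 columns, and those of Ms4a6b and Ms4a6c were 82.2% identical over 180 columns. Every other pair of windows from different genes aligned over at most 61 columns. The next lines give the Ms4a4b and Ms4a4c windows, with the letters GAGGAA, 1 form of the site read by the myeloid factor PU.1, in capitals. Shorter forms of that site were not searched. The Ms4a6b and Ms4a6c windows follow, with the longest run common to both in capitals.
Ms4a4b, chr19:11443308-11443557, plus strand: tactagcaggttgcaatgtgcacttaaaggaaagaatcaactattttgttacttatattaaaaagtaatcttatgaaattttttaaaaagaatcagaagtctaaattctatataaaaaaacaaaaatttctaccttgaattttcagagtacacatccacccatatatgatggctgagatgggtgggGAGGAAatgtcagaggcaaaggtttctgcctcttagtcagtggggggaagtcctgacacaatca
Ms4a4c, chr19:11407411-11407660, plus strand: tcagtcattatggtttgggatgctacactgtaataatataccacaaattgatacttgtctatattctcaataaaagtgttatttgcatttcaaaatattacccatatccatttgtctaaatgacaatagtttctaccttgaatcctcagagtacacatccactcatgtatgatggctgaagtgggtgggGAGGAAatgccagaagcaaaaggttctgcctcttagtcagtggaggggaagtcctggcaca
Ms4a6b, chr19:11518309-11518558, plus strand: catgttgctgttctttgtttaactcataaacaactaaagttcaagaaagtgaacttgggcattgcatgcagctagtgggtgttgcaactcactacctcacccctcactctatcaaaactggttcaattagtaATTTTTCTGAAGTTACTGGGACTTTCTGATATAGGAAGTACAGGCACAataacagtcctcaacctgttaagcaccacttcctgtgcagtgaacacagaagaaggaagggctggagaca
Ms4a6c, chr19:11469118-11469367, plus strand: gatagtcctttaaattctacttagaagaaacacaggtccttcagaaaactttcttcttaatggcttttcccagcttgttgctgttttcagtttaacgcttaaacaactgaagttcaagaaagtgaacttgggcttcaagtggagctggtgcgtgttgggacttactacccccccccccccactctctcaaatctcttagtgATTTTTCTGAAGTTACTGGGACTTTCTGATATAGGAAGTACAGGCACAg

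GAGGAA, searched on both strands, stood at bases -64 to -59 of Ms4a4b and at -61 to -56 of Ms4a4c, counted back from -1 before the start, and 23.3% of the 32851 promoter windows hold it. The shared run of Ms4a6b and Ms4a6c has 48 bases and begins at base -118 in Ms4a6b and at -49 in Ms4a6c. TGANTCA, searched as an AP-1 motif with any letter at its centre, was found in 6.75% of all windows. Among the members it was found in the window of 1 of the 2 Ms4a7 starts, where the letters were TGATTCA. The letters TTGCNNAA for C/EBP factors (9.56% of all windows), TGCTGAC for MAF factors (3.81%) and the IRF and PU.1-IRF composite motifs (2.98% and 2.3%) were not found in the member windows on either strand, so no matches overlapped. Although their promoter windows resemble each other, Ms4a4b and Ms4a4c were read by probes that share little sequence. Over the 32 pairs of probes for different members the longest common run, on either strand, was 9 bases. No probe was compared with the transcript of another member, so these runs cannot show that each probe read only its own gene.

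Across the 16 arrays Ms4a4b, Ms4a6b and Ms4a6c ran together in level and opposite to Ms4a7. Ms4a4b correlated at 0.84 with Ms4a6b, at 0.83 with Ms4a6c and at -0.93 with Ms4a7, and Ms4a6d correlated at 0.53 with Ms4a7. Once each group's mean was subtracted, Ms4a4b and Ms4a7 correlated at 0.17, whereas Ms4a6d correlated at 0.65 with Ms4a6b and at 0.65 with Ms4a6c. After this subtraction Ms4a7 correlated at 0.51 with Ms4a6b and at 0.02 with Ms4a6c, so the opposite run was not seen within groups. Ms4a4b then correlated at 0.60 with Ms4a6b and at 0.25 with Ms4a6c. These values describe 16 arrays that share groups and slides.

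Of 16 other family genes on the array, with the structural relatives Tmem176a and Tmem176b counted among them, 9 had a probe that could be tested. In CCR2+ macrophages against monocytes 2 of them were higher and 2 lower, with a median difference of 0.11 beside -0.10 over all features. MHC-IIHi macrophages gave 2 higher and 2 lower (median -0.22 beside -0.05), and MHC-IIlo macrophages 2 higher and 1 lower (median -0.27 beside -0.06). Over all features 9.91% were higher and 12% lower in CCR2+ macrophages, 10% and 11.6% in MHC-IIHi, and 10.1% and 11.4% in MHC-IIlo macrophages. Ms4a1, Ms4a2 and Ms4a3, which mark B cells, mast cells and basophils, and myeloid progenitors, cleared the background cutoff on none of the 16 arrays. The probe used for Ms4a5 also ends in a CA run, of 16 letters, and its other probe cleared the background cutoff on no array.

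Ms4a4a, a macrophage surface protein that associates with the beta-glucan receptor dectin-1, was lowest in CCR2+ macrophages. Its level averaged 0.94 ± 0.70 in CCR2+, 1.93 ± 0.49 in MHC-IIHi and 2.57 ± 0.39 in MHC-IIlo macrophages, against 3.31 ± 0.27 in monocytes (SD, n = 4 each). CCR2+ macrophages were -1.62 ± 0.33 relative to MHC-IIlo macrophages (adjusted p = 0.0133) and -2.37 ± 0.33 relative to monocytes (adjusted p = 1.09e-04), with no overlap of arrays in either comparison. CCR2+ and MHC-IIHi macrophages overlapped in Ms4a4a, and their difference of -0.99 did not pass (adjusted p = 0.245). CCR2+ was thus the macrophage group with the lowest mean Ms4a4a level, and it had the highest mean Ms4a4c level at both repeat-free probes. Ms4a8a averaged -0.11 ± 0.66 in CCR2+, -0.13 ± 0.57 in MHC-IIHi and 0.71 ± 0.56 in MHC-IIlo macrophages, against 2.44 ± 0.30 in monocytes, and all 3 differences from monocytes passed. Tmem176a was higher in all 3 macrophage groups than in monocytes, by 1.21, 1.50 and 0.95 in CCR2+, MHC-IIHi and MHC-IIlo macrophages, and Tmem176b by 0.86, 1.07 and 0.80, all past the test.

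**Figure D5:**
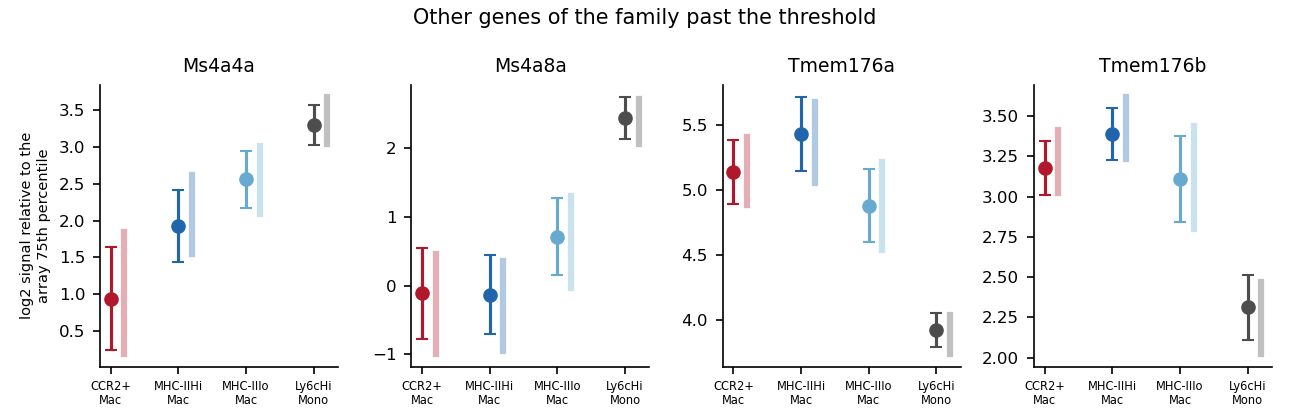
Mean log2 signal relative to the array's 75th percentile (points, with SD of n = 4) and range over the arrays (pale bars) of the 4 other family genes past the test, in the 4 sorted groups, with a separate vertical axis for each gene. Ms4a4a runs from 0.94 in CCR2+ to 2.57 in MHC-IIlo macrophages and is 3.31 in monocytes, and Tmem176a and Tmem176b are lowest in monocytes.

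Receptors and signalling proteins that family members are known to accompany were given as a list of 8 genes, 7 of them tested. Against monocytes 0 were higher and 1 was lower in CCR2+ macrophages, beside 9.91% and 12% of all features. In MHC-IIHi macrophages 0 were higher and 3 lower, beside 10% and 11.6% of all features. In MHC-IIlo macrophages 1 was higher and 3 were lower, beside 10.1% and 11.4% of all features. Clec7a, which encodes dectin-1, fell in MHC-IIHi (-1.19 ± 0.34, adjusted p = 0.0203) and in MHC-IIlo macrophages (-2.56 ± 0.34, adjusted p = 5.16e-05) relative to monocytes. CCR2+ exceeded MHC-IIlo macrophages in Clec7a by 1.57 ± 0.34 (adjusted p = 0.0198). Tyrobp, the adaptor of Trem2 and other receptors, fell by 0.92, 0.67 and 0.59 on the log2 scale in CCR2+, MHC-IIHi and MHC-IIlo macrophages. Trem2 passed in MHC-IIlo macrophages, at a mean level of 3.76 ± 0.35, against 2.66 ± 0.46 in monocytes (SD, n = 4 each, 2.14-fold, adjusted p = 0.00457), while Lyn, a Src-family kinase, was -1.54 ± 0.28 relative to monocytes in that group (adjusted p = 7.66e-04). Tnfrsf18, which encodes GITR, was -0.99 ± 0.31 relative to monocytes in MHC-IIHi macrophages (adjusted p = 0.0339). Fcer1g and Syk passed in no comparison, and Fcer1a cleared the background cutoff on no array.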

How the data were processed

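RNA of 4 sorted populations was read on 16 single-colour arrays. The scanner files were deposited with background-subtracted processed signal intensity from Agilent Feature Extraction 11.5.1.1, and Partek is the other tool named, per the submitters' processing notes. The series value table, which holds log2 values as deposited by the authors, was used only as a label check, since all 16 of its columns matched the scanner file of a differently labelled sample better (12 of them from another group). Groups therefore rest on the scanner files' own samples.

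Here log2 processed signal was scaled to each array's 75th percentile. Control and outlier-flagged spots were left out, repeat spots were averaged, and a probe was kept if well above background on at least 4 arrays (27630 probes). The brightest kept probe stood for each gene (22081 features). limma 3.58.1 (R 4.3.3) fitted 1 mean per group over all 16 arrays (lmFit, eBayes) for 7 comparisons, with Benjamini-Hochberg adjustment over all features and a threshold of 0.05. The code was tested on simulated data. The number of arrays limits the precision.

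Each replicate number is 1 slide with 1 array per group, and position on the slide cannot be told apart from group. Deviations from group means correlated at 0.137 to 0.637 in 24 of 24 same-numbered pairs (median 0.341). In the 72 differently numbered pairs the correlations ran from -0.534 to 0.491 (median -0.189). Same-numbered arrays share a slide, so paired samples cannot be told apart from a slide effect. Blocked values are therefore given where they change a call of a member. The alternatives were other scalings, background correction, probe filters, probe averaging, array weights, the groups compared alone, the block and leaving out each array. Leaving out the 163 probes with a TG or CA run of at least 12 letters was added after seeing the data. The members and gene lists were chosen with earlier results of these data known. The rule for named genes took the members, the 3 named genes most correlated with each, other family genes past the threshold, Ms4a1, Ms4a2, Ms4a3 and 8 receptor partners. Mertk, Ccr2, Fcgr1 and Ms4a5, the values of Ly6c1 and the genes most like Ms4a4c without repeat probes fall outside it and were chosen after values were seen.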

Additional observations from a re-analysis of the deposited data

How the results depend on the processing

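For Ms4a7, Ms4a4b, Ms4a6b, Ms4a6c and Ms4a6d against monocytes, 524 of 535 recomputed differences kept their direction and their side of the threshold, 7 gained the call, 3 lost it and 1 reversed. The count of members past the threshold was 1 in place of 0 for CCR2+ against MHC-IIHi macrophages with all probes of a gene averaged and with repeat probes left out. For CCR2+ against MHC-IIlo macrophages it was 1 with array weights, averaged probes or repeat probes left out. For CCR2+ macrophages against monocytes it was 3 in place of 5 after quantile normalization, Ms4a4c (repeat probe) and Ms4a6c being lost. Ms4a4c reversed to 0.78 and 1.44 for CCR2+ against MHC-IIHi, to 0.95 and 1.81 for CCR2+ against MHC-IIlo and to 0.17 and 0.37 for MHC-IIHi against MHC-IIlo macrophages (averaged probes, then repeat probes left out). The last difference was also 0.034 with quantile and 0.018 with normexp. Under quantile normalization Ms4a6c reversed to 0.064, 0.067 and 0.0033 in these 3 comparisons and Ms4a7 to 0.026 and 0.025 in the first 2. For CCR2+ against MHC-IIHi macrophages median scaling gave 0.016 for Ms4a6c and 0.016 for Ms4a7, normexp gave Ms4a6c 0.038 and array weights gave it 0.16. For CCR2+ against MHC-IIlo macrophages normexp gave Ms4a6c 0.014 and array weights gave Ms4a7 0.032. For MHC-IIHi against MHC-IIlo macrophages array weights gave Ms4a7 0.047.

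Leaving out 1 array moved CCR2+ against MHC-IIHi macrophages over -0.16 to 0.12 for Ms4a6c and -0.16 to 0.13 for Ms4a7. It moved CCR2+ against MHC-IIlo macrophages over -0.19 to 0.030 for Ms4a6c and -0.18 to 0.11 for Ms4a7. For MHC-IIHi against MHC-IIlo macrophages the ranges were -0.30 to 0.11 (Ms4a4c repeat probe), -0.34 to 0.031 (Ms4a6b), -0.19 to 0.066 (Ms4a6c) and -0.19 to 0.14 (Ms4a7). Ms4a6d in CCR2+ macrophages against monocytes ran from -0.013, without monocyte replicate 2, to 0.34. None of these differences passed the test. Over 20 further settings without repeat probes Ms4a4c stayed 1.29 to 1.55 above MHC-IIHi macrophages in CCR2+ macrophages. The cause of these changes was not tested.

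With replicate as a block 5 members passed in CCR2+ and 6 in each other macrophage group against monocytes, while the share of all features past the threshold was 33.9% (CCR2+), 31.8% (MHC-IIHi) and 32.3% (MHC-IIlo). The block added calls for the Ms4a4c repeat probe (-0.54 and -0.47) and for Ms4a6d (0.57 and 0.75) in MHC-IIHi and MHC-IIlo macrophages, and changed no other call of a member between single groups. Dim probes near background limit what can be read of the relatives not tested.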
